A study of Mus musculus with 8 samples.

Results

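The BMP genes described here are 9 genes of the bone morphogenetic protein pathway: the ligands Bmp4 and Bmp2, the receptor Bmpr1a, the signal transducer Smad1, the response genes Id1, Id2 and Id3, and the inhibitory Smads Smad6 and Smad7. Every probe set whose only gene symbol in the platform annotation is one of these was taken, which gave 13 probe sets for all 9 genes, out of 12422 probe sets for 8251 genes on the array. Of the 13, 11 reached a log2 value of 5 on at least 2 arrays and were tested, and at least 1 probe set of each gene was among them. The genes were chosen by the lower Bmp4 value with OSM in both genotypes, so the OSM differences of these genes are given as a description, without p-values. The other genes were set beside it as its relative, its receptor and transducer, its response genes and its inhibitors.

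Spontaneously immortalised mouse embryonic fibroblasts (MEFs) were compared, with 2 arrays in each of 4 groups: STAT3-/- cells with oncostatin M (OSM) at 20 ng/ml for 30 minutes, untreated STAT3-/- cells, STAT3+/+ cells with OSM, and untreated STAT3+/+ cells. The genotypes are called KO and WT below. The sample descriptions mention OSM for every sample, so the treatment was taken from the titles. All cells grew in medium with 10% fetal calf serum. The design text names 3 comparisons, KO with WT and OSM with no OSM in each genotype. Each genotype is a line of its own, so Stat3 and any other difference between the lines cannot be told apart. The sample titles end in 02 or 03, and each of these title numbers holds 1 array of every group. What the number stands for is not stated, and neither is whether the 2 arrays of a group were separate cultures. The p-values therefore reflect array-to-array spread only, and this may be technical.

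BMP ligands bind pairs of type I and type II receptors at the cell surface, and the activated type I receptor, Bmpr1a among them, phosphorylates Smad1 and its relatives. These Smads join Smad4, enter the nucleus and switch on genes such as Id1, Id2 and Id3, whose helix-loop-helix proteins cannot bind DNA and hold back the factors that they pair with. Smad6 and Smad7 are induced by the same signal and close a negative feedback loop, Smad6 mainly on BMP signals and Smad7 on both BMP and TGF-beta signals. OSM belongs to the interleukin-6 cytokines and acts through gp130 receptors, JAK kinases, Stat3 and MAP kinases.

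Promoters of 6 of the 9 genes were found in the RefSeq table of build GRCm38.p6. Those of Bmp4, Id3 and Smad6 are printed because these 3 genes were lower with OSM in every pair of arrays below, and that of Id2 because its OSM difference ran in opposite directions in the genotypes. Each runs 5′ to 3′ from 250 bases before the annotated start to 50 after it, with any matched motif in capitals.
Bmp4 (chr14:46390620-46390919, minus strand): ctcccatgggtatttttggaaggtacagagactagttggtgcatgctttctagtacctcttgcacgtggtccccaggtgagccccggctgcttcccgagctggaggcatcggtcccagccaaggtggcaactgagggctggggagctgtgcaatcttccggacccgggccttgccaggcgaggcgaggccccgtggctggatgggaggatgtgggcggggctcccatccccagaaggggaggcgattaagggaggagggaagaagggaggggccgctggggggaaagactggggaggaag
Id3 (chr4:136143572-136143871, plus strand): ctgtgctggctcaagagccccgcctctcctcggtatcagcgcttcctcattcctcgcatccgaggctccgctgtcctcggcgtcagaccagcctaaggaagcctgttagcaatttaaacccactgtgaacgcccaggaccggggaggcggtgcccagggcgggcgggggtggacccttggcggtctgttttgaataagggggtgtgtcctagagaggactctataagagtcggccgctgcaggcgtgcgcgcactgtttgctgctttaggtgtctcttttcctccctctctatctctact
Smad6 (chr9:64022010-64022309, minus strand): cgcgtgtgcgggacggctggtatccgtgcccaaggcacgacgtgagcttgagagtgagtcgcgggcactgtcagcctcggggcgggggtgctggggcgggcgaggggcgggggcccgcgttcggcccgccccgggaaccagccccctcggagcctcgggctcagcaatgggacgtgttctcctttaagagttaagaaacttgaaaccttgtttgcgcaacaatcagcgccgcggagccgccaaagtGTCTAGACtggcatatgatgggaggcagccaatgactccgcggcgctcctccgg
Id2 (chr12:25096043-25096342, minus strand): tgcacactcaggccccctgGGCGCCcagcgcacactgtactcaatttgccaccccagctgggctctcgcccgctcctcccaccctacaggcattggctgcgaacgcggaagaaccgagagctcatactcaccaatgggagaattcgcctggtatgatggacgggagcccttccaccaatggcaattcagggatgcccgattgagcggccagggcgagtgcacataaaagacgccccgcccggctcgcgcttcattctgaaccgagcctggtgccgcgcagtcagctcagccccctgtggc
The motifs searched on both strands were the STAT motif TTCNNNGAA, the GC-rich BMP element core GGCGCC, that core followed after 5 bases by the Smad box GTCT, and the palindromic Smad box GTCTAGAC. Overlapping matches were counted, and a match of the longer element would also be one of its core. Of all 32851 promoter windows of this length 8.3% hold TTCNNNGAA, 11.9% hold GGCGCC, 0.0731% hold the core with the spaced Smad box and 0.213% hold GTCTAGAC. The Smad6 window holds GTCTAGAC once, from base 247 of 300. The Id2 window holds GGCGCC once, from base 20, and the Bmpr1a window holds it from base 53. The Bmp4, Id3 and Smad1 windows hold none of these motifs, and TTCNNNGAA is in none of the 6, which says nothing of sites elsewhere.

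The values are log2 GCRMA expression values, and a level is never compared between probe sets. Array medians lay between 5.27 and 5.66. The check of the genotype showed lower Stat3 in the KO line, at 8.70 and 9.17 with OSM and 8.08 and 7.81 without, against 11.82 and 11.94 with OSM and 10.11 and 10.50 without in the WT line (numbers 2 and 3). The position of this probe set relative to the deleted part of Stat3 is unknown here. The early OSM response gene Fosl1 was 2.76 to 4.48 higher with OSM in all 4 pairs of arrays that share a genotype and a number, and Ereg, an EGF receptor ligand, was 3.51 to 7.40 higher. Socs3, a STAT3 target and feedback inhibitor, read 9.12 and 11.98 in KO cells with OSM, against 8.31 and 5.38 without, and 13.80 on both WT arrays with OSM, against 9.10 and 8.72 without. Of the fibroblast markers 8 of 10 passed the filter, the collagens Col1a1, Col1a2 and Col3a1 among them, while Thy1 and Vim were under 5 on every array. Leukocyte markers (4 on the array) and bone and cartilage markers (4 on the array) were under 5 on every array. Of the other lists Lpl, Myog, Pecam1, Kdr, Krt8 and Krt18 passed the filter.

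The title number split the arrays more than any group did. The first principal component held 56.0% of the variance and placed the arrays of number 3 at 32.5 to 51.5. Those of number 2 lay at -54.7 to -48.1, except the KO OSM array at -19.4. With number as a term in limma, 41.1% of the 6756 tested probe sets differed between the numbers (adjusted p under 0.05). The 18S 3′ control read 14.7 to 15.1 in number 3 and 11.02 to 11.7 in number 2, and its part in the results was not tested. Each comparison below is therefore given within each number, where both arrays share it.

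Bmp4 was lower with OSM in both lines. The Bmp4 probe set with the higher mean read 9.82 and 10.88 in KO cells with OSM, against 11.16 and 12.42 in untreated KO cells (numbers 2 and 3). In WT cells it read 11.29 and 9.52 with OSM, against 13.03 and 11.69 without. The OSM arrays lay below the untreated arrays of their own genotype without overlap. In bulk RNA, fewer cells that make a transcript and less of it per cell cannot be told apart. The OSM difference was -1.34 within number 2 and -1.54 within number 3 in KO cells, and -1.75 and -2.17 in WT cells, and averaged -1.44 ± 0.83 in KO and -1.96 ± 0.83 in WT cells (limma SE). The group means were 10.35 ± 0.76 in KO cells with OSM, 11.79 ± 0.89 in untreated KO cells, 10.41 ± 1.25 in WT cells with OSM and 12.36 ± 0.95 in untreated WT cells (SD, n = 2 each). Fibroblast markers were lower with OSM for 7 of 8 in KO cells (median -0.27) and 6 of 8 in WT cells (median -0.19), and none was called. Their summed level was 16.6 to 17.2 in KO cells with OSM, 16.98 to 17.3 in untreated KO cells, 16.4 to 17.5 in WT cells with OSM and 16.7 to 17.7 in untreated WT cells (log2). The adipocyte list had Adipoq, Fabp4 and Pparg under 5 on every array, and its 1 marker that passed, Lpl, differed by -1.02 with OSM in WT cells, -0.06 with OSM in KO cells and -1.62 between untreated KO and WT cells. The part of these markers in the Bmp4 differences was not tested. Untreated WT was highest for Bmp4 and untreated KO next, and these neighbours differed by less than their SDs, as did WT with OSM and KO with OSM at the low end.

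The second Bmp4 probe set gave a smaller OSM difference in KO cells. It read 9.75 and 11.77 in KO cells with OSM, against 9.77 and 12.23 without, and the groups overlapped. It read 10.10 and 10.80 in WT cells with OSM, against 11.53 and 12.72 without, with no overlap. Within numbers 2 and 3 its OSM difference was -0.02 and -0.47 in KO cells, and -1.43 and -1.92 in WT cells. The difference between the lines' OSM differences, KO minus WT, was 0.52 ± 1.17 on the first probe set and 1.44 ± 1.44 on the second (limma SE). Both Bmp4 probe sets were lower with OSM in 4 of 4 pairs, a pattern found in 15.7% of the tested probe sets. As Bmp4 was chosen for this difference, nothing is read from that share.

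**Figure D1:**
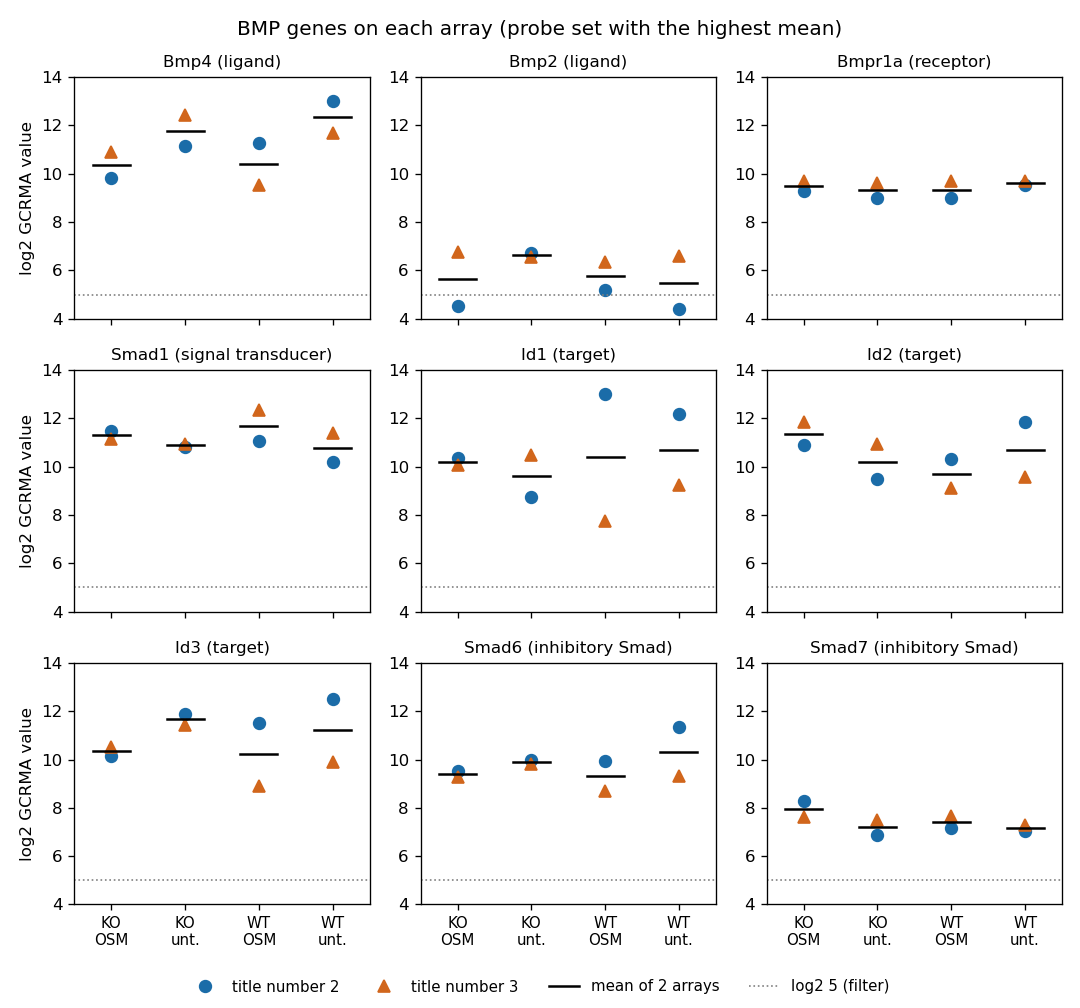
Log2 GCRMA value (vertical axis) of each BMP gene on all 8 arrays, by group, for the probe set with the highest mean. Circles are title number 2, triangles title number 3, black bars the mean of 2 arrays, and the dotted line the filter at log2 5. Bmp4 lies lower with OSM in each line, while Id1 spans 7.74 to 13.03 within the WT line with OSM.

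Bmp2, the close relative of Bmp4, was near background. Its highest probe set reached 5 on 6 of 8 arrays and read 4.54 and 6.75 in KO cells with OSM, against 6.70 and 6.54 without. In WT cells it read 5.20 and 6.35 with OSM, against 4.38 and 6.59 without. The OSM differences had no shared direction, at -2.16 and 0.21 in KO and 0.82 and -0.24 in WT cells within numbers 2 and 3. Of its other probe sets 1 was under 5 on every array and the other reached 5 only in untreated WT number 2, at 5.39, so neither was tested.

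The receptor Bmpr1a varied least of the 9 genes among the highest probe sets, by 0.73 over the 8 arrays. It read 9.30 and 9.70 in KO cells with OSM, against 9.01 and 9.63 without, and 8.99 and 9.69 in WT cells with OSM, against 9.54 and 9.72 without. The groups overlapped in both lines. Smad1, which carries the BMP signal to the nucleus, was higher with OSM in 4 of 4 pairs on its highest probe set. It read 11.49 and 11.15 in KO cells with OSM, against 10.82 and 10.94 without. It read 11.05 and 12.33 in WT cells with OSM, against 10.20 and 11.39 without. The KO groups did not overlap and the WT groups did. On the other Smad1 probe set the OSM difference was 0.08 and -0.01 in KO cells, and 0.59 and 1.44 in WT cells.

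The 3 Id genes had different directions. Id3, like Bmp4, was lower with OSM in 4 of 4 pairs. It read 10.14 and 10.54 in KO cells with OSM, against 11.89 and 11.42 without. In WT cells it read 11.52 and 8.91 with OSM, against 12.52 and 9.90 without. The KO groups stood apart. The WT groups overlapped, and number 3 lay far below number 2 in both. The differences were -1.76 and -0.88 within the numbers in KO cells and -1.01 and -0.98 in WT cells, averaging -1.32 ± 1.10 in KO and -0.995 ± 1.10 in WT cells (limma SE).

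Id2 was higher with OSM in both KO pairs and lower in both WT pairs. It read 10.91 and 11.84 in KO cells with OSM, against 9.47 and 10.93 without. It read 10.33 and 9.10 in WT cells with OSM, against 11.83 and 9.58 without. The OSM and untreated arrays overlapped in both lines. The OSM difference was 1.17 ± 0.92 in KO cells and -0.99 ± 0.92 in WT cells (limma SE), and the difference between them, 2.16 ± 1.30, did not pass (adjusted p = 1 over all probe sets in limma, unadjusted p = 0.147). For this difference 0% of all probe sets were called, and 0.429% had an unadjusted p under 0.05. Opposite directions in the genotypes, in both pairs of each, held for 14.6% of the tested probe sets and for 2 of the 9 genes, Id2 and, with differences of at most 0.55, Bmpr1a.

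Id1 had opposite OSM differences in the title numbers. It read 10.35 and 10.06 in KO cells with OSM, against 8.75 and 10.47 without. In WT cells it read 13.03 and 7.74 with OSM, against 12.16 and 9.26 without. Within number 2 it was higher with OSM in both lines, by 1.60 in KO and 0.86 in WT cells. Within number 3 it differed by -0.41 in KO and -1.52 in WT cells. This pattern held for 3.6% of the tested probe sets, and the averages of 0.59 ± 1.81 in KO and -0.33 ± 1.81 in WT cells hide it (limma SE).

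The inhibitory Smads had opposite directions. Smad6 was lower with OSM in 4 of 4 pairs, as Bmp4 and Id3 were. It read 9.54 and 9.28 in KO cells with OSM, against 9.96 and 9.81 without, and 9.94 and 8.71 in WT cells with OSM, against 11.35 and 9.31 without. The KO groups did not overlap. The differences within the numbers were -0.43 and -0.53 in KO cells, and -1.41 and -0.60 in WT cells. Smad7 was higher with OSM in 4 of 4 pairs. It read 8.28 and 7.61 in KO cells with OSM, against 6.89 and 7.51 without, and 7.17 and 7.65 in WT cells with OSM, against 7.04 and 7.30 without. Only within number 2 of the KO line was its difference large, at 1.39. The 2 arrays there held its highest value of all 8, 8.28 with OSM, and its lowest, 6.89 without. The KO OSM array of number 2 is the one that stands apart from the rest of number 2. The remaining Smad7 differences were 0.10, 0.13 and 0.35. Both KO arrays of number 2 enter the KO difference of every gene within that number, and the part of either was not tested. On the highest probe sets that difference was also larger in size than within number 3 for Bmp2, Bmpr1a, Smad1, Id1, Id2 and Id3. It was smaller for Bmp4 and Smad6.

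Over the 9 genes, each by its highest probe set, 3 were lower with OSM in all 4 pairs and 2 were higher in all 4. Of all tested probe sets 15.7% were lower and 13.4% higher in all 4. The 3 include Bmp4, which was chosen for its lower value with OSM, so nothing is read from its part in these counts. The median OSM difference was 0.18 in KO and -0.33 in WT cells, beside 0.02 and -0.04 over all 6756 probe sets. On the highest probe sets the KO arrays with and without OSM did not overlap for 3 genes that were lower, Bmp4, Id3 and Smad6. Nor did they for 2 that were higher, Smad1 and Smad7. Of all tested probe sets 12.3% were lower and 14.4% higher without overlap. On the second probe sets of Bmp4 and Smad1 the KO arrays overlapped, and that of Smad1 differed by -0.01 within number 3. In WT cells only Bmp4 stood apart, on both probe sets, and 9.31% of all were lower without overlap. None of the 11 member probe sets was called for OSM in either line by limma, where 0% of all probe sets were called, and 2.04% in KO and 1.87% in WT cells had an unadjusted p under 0.05.

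**Figure D2:**
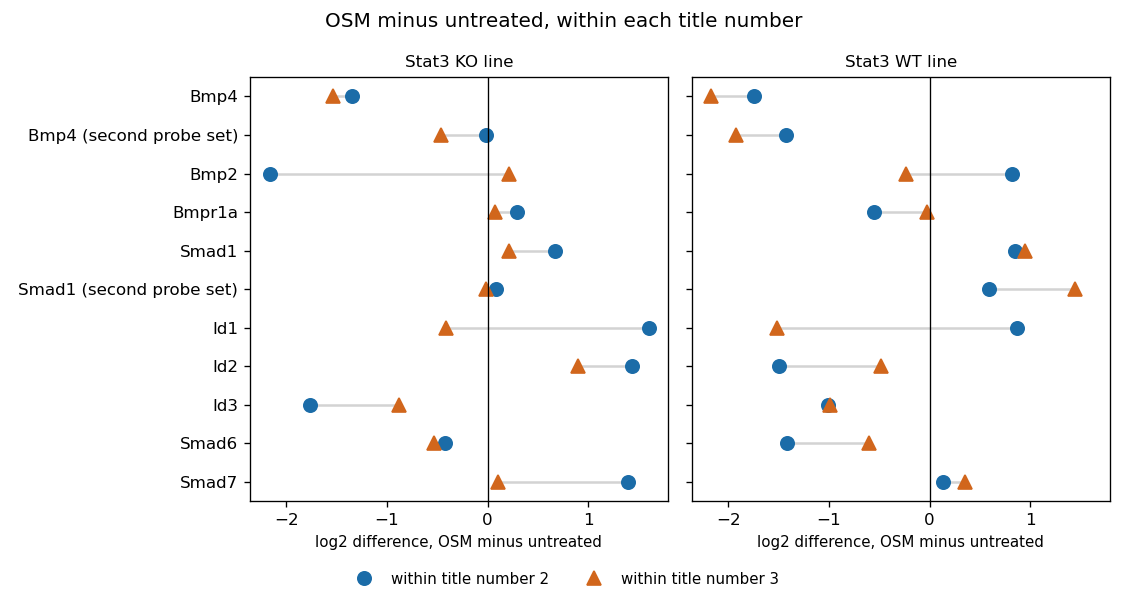
OSM minus untreated log2 difference (horizontal axis) of each tested member probe set, within title number 2 (circles) and 3 (triangles), with the KO line on the left and the WT line on the right. Bmp4, Id3 and Smad6 lie left of 0 in all 4 pairs, Id2 lies right of 0 in KO and left of it in WT, and Id1 is split by number.

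On the first Bmp4 probe set, the 5 genes most like Bmp4 in profile included the BMP response gene Id3. The lower value with OSM for which Bmp4 was chosen enters this likeness, so the ranks are a description only. Likeness was the root mean square difference over the 8 arrays after the mean of each title number was subtracted, over 5192 other genes with a tested probe set. On the first Bmp4 probe set the nearest were the Wnt receptor Fzd2 (0.38), the Ras-association protein Rassf2 (0.44), Id3 (0.50), the adaptor Sorbs3 (0.52) and the vitamin D receptor Vdr (0.52), where the median over all genes was 1.14. Smad6 ranked 14 at 0.62, while Id2 ranked 2254 and Id1 3048. On the second Bmp4 probe set, tried after the data were seen, Smad6 ranked 10 at 0.37 but Id3 ranked 1561. The nearest there were Mras (0.20), Sox4 (0.22), Slc22a23 (0.23), Zfp101 (0.28) and Wwc2 (0.30), so that none of the nearest 5 was shared. The place of Smad6 held on both probe sets, and that of Id3 on the first alone.

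Fzd2 shows what this likeness means. It read 9.97 and 10.37 in KO cells with OSM, against 11.89 and 12.09 without, and 11.20 and 9.94 in WT cells with OSM, against 12.64 and 11.58 without. It was lower with OSM in every pair, as Bmp4 was. The genes most like Id1 were Inhbb, a subunit of activin and inhibin (0.53), Lin9, a regulator of cell cycle genes (0.64), the replication licensing factor Cdc6 (0.71), Plscr2 (0.72) and the survival factor Bcl2l1 (0.75), with a median of 1.40 over all genes. Cdc6 read 5.60 and 5.74 in KO cells with OSM and 5.48 and 6.33 without, and 7.64 and 3.07 in WT cells with OSM and 7.64 and 3.46 without. It was lowest in number 3 of the WT line, with and without OSM, and values under 5 are near background.

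The genotype comparison asked how the Stat3 KO line differs from the WT line, and for 4 of the 9 genes its direction turned with the title number. Id1, Id3, Smad6 and Bmp4 on its first probe set were higher in KO than in WT cells within number 3 and lower within number 2, both with and without OSM. This pattern held for 9.65% of the tested probe sets. Bmp4 differed by 1.36 with OSM and 0.73 without within number 3, and by -1.47 and -1.87 within number 2. Its second probe set did not show the turn without OSM, at 0.97 and -0.49 within number 3 and -0.35 and -1.76 within number 2. Id1 differed by 2.32 and 1.21 within number 3, and by -2.67 and -3.41 within number 2. Id3 differed by 1.63 and 1.53 within number 3, and by -1.38 and -0.63 within number 2. In both treatments Id1, Id3, Smad6 and the first Bmp4 probe set were lower in the WT array of number 3 than of number 2. The second Bmp4 probe set was higher there, by 0.70 with OSM and 1.19 without. In KO cells the first Bmp4 probe set was higher in number 3, by 1.07 with OSM and 1.26 without. The actin 3′ minus 5′ difference, a sign of RNA quality, was highest in the same WT arrays of number 3, at 1.01 with OSM and 1.11 without. It was 0.72 and 0.85 in the KO arrays of number 3, and 0.33 to 0.53 in all arrays of number 2, and its part in the turn was not tested.

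Smad6 showed the same turn at a smaller size, with 0.58 and 0.50 within number 3 and -0.40 and -1.39 within number 2. Smad1 ran the other way, at -1.18 and -0.45 within number 3 and 0.45 and 0.62 within number 2, as did 8.44% of the tested probe sets. Without OSM Id2 differed by 1.36 within number 3 and -2.36 within number 2, while with OSM it was higher in KO cells within both, by 2.74 and 0.58.

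Averaged over the numbers, the differences of Bmp4 (first probe set), Id1 and Id3 were smaller in size than within either number. Bmp4 differed by -0.06 ± 0.83 with OSM and -0.57 ± 0.83 without, Id1 by -0.18 ± 1.81 and -1.10 ± 1.81, and Id3 by 0.12 ± 1.10 and 0.45 ± 1.10 (limma SE). Of the 11 member probe sets 0 were called with OSM, where 0.0148% of all probe sets were, and 0 without OSM, where 0% were. An unadjusted p under 0.05 was found for 3.6% of all probe sets with OSM and 2.24% without. Their limma adjusted p-values were 1 throughout, with unadjusted p from 0.121 with OSM and from 0.3 without. The largest average was that of Id2 with OSM, at 11.37 ± 0.66 in KO and 9.71 ± 0.87 in WT cells (SD, n = 2 each), a difference of 1.66 ± 0.92 (SE, limma adjusted p = 1). Its KO arrays lay above its WT arrays without overlap, as 11.2% of all tested probe sets did.

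**Figure D3:**
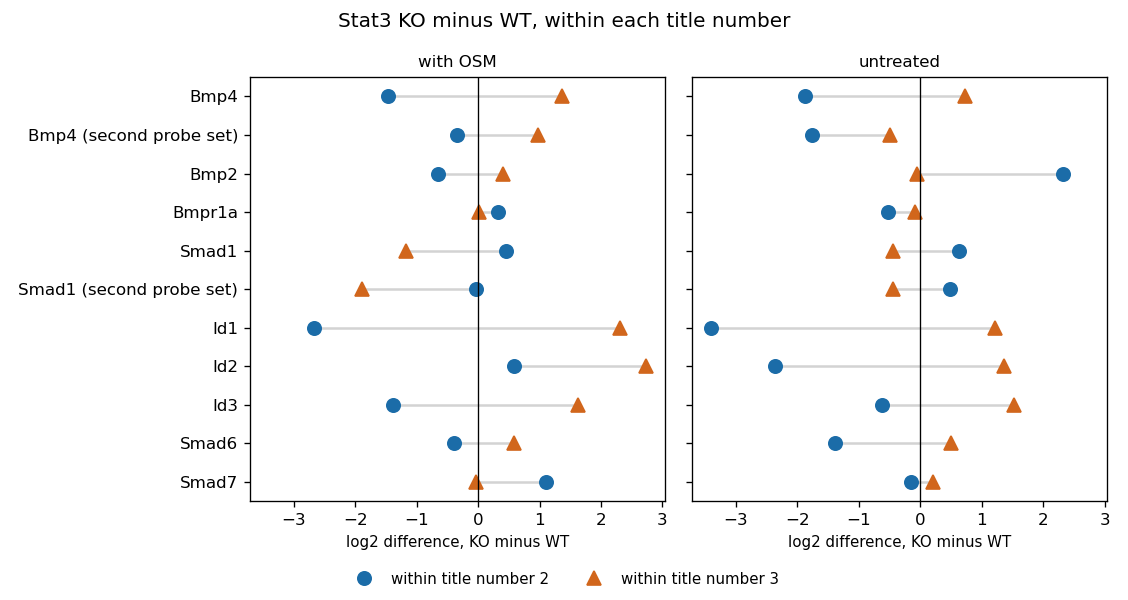
KO minus WT log2 difference (horizontal axis) of each tested member probe set with OSM (left) and untreated (right), within title number 2 (circles) and 3 (triangles). For the first Bmp4 probe set, Id1, Id3 and Smad6 the circles lie left of 0 and the triangles right of 0 in both panels, and the first Smad1 probe set is turned the other way.

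A limma fit with a genotype-by-number term, added after this turn was seen, tested it over all probe sets. The KO minus WT difference was larger in number 3 than in number 2 for Bmp4, Id2 and Id3. The shifts were 2.72 ± 0.25, 2.94 ± 0.42 and 2.58 ± 0.35 (SE), and these 3 passed (limma adjusted p = 0.014, 0.0302 and 0.0274). The spread in this fit is the change of the OSM differences between the numbers. Bmp4 was chosen for its OSM differences, so no p-value of Bmp4 in this fit is read as support. In this fit 3 of the 11 member probe sets were called, the chosen Bmp4 among them, beside 5.6% of all probe sets. Each genotype and number holds 1 array of each treatment, and the fit uses these as replicates. Their shifts between the numbers correlated at 0.911 in WT and 0.794 in KO cells. The p-values therefore reflect agreement between the treatments, and the turn itself was not replicated. Id1 had the widest shift, 4.81 ± 1.01, without passing (adjusted p = 0.0656), and Smad6 with 1.44 ± 0.35 (adjusted p = 0.0901), Smad1 with -1.35 ± 0.25 (adjusted p = 0.0512) and the second Bmp4 probe set with 1.29 ± 0.30 (adjusted p = 0.0777) also missed the threshold. Without any 1 of the 4 WT arrays the fit called 0 probe sets in all, and the adjusted p of Bmp4 was 0.115 to 0.132. Without the filter the adjusted p was 0.0581 for Bmp4, 0.0759 for Id2 and 0.0695 for Id3, so that none passed. Without KO OSM number 2, the array that stands apart, Bmp4 and Id3 still passed (adjusted p = 0.0456 each). Id2 did not pass with any 1 of the 8 arrays left out, with an adjusted p of 0.0678 to 0.166.

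For Id1, Id2, Id3 and Smad6 the WT arrays differed more between the numbers than the KO arrays of the same treatment. In WT cells number 3 minus number 2 was -5.28 with OSM and -2.90 without for Id1, and -2.60 and -2.63 for Id3. It was -1.23 and -2.25 for Id2, and -1.23 and -2.04 for Smad6. In KO cells the differences of these 4 genes lay between -0.47 and 1.73. The highest Smad1 probe set also differed more in WT cells, but was higher in number 3, by 1.29 with OSM and 1.19 without. In KO cells it differed by -0.34 and 0.12. The first Bmp4 probe set shifted in both lines, by 1.07 with OSM and 1.26 without in KO cells, and by -1.77 and -1.34 in WT cells. For the second Bmp4 probe set and Smad7 the KO arrays differed more. Number 3 minus number 2 was 2.01 with OSM and 2.46 without in KO cells for that Bmp4 probe set, against 0.70 and 1.19 in WT cells. For Smad7 it was -0.67 and 0.62 in KO cells, against 0.48 and 0.26 in WT cells. Over all groups only the second Bmp4 probe set passed for the number itself, 1.59 ± 0.32 higher in number 3 (SE, limma adjusted p = 0.0144), while the first differed by -0.19 ± 0.59 (adjusted p = 0.803). The 1 called of 11 stands beside 41.1% of all probe sets called in either direction and 23.4% called higher in number 3.

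Among 68 other listed genes of the BMP and TGF-beta pathway, 52 had a probe set with their symbol alone and 26 passed the filter. None was called in any of the 5 comparisons of the 4 groups. Their median OSM difference was 0.08 in KO cells, with 15 above 0, and -0.08 in WT cells, with 10 above 0. The largest OSM difference that held within both numbers was that of Fst, follistatin, a secreted protein that traps activins and some BMPs. Fst read 6.97 and 9.55 in KO cells with OSM, against 5.01 and 4.62 without. In WT cells Fst read 9.16 and 8.97 with OSM, against 7.26 and 6.02 without. Its untreated KO values were near background, so the sizes of differences taken from them are uncertain. The groups did not overlap in either line, and its differences of 3.44 ± 0.88 in KO and 2.42 ± 0.88 in WT cells did not pass (SE, limma adjusted p = 1 each).

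Inhba, which encodes the subunit of activin A, a ligand that follistatin binds, was 3.01 and 2.08 higher with OSM within the numbers in KO cells, and -0.53 and 1.53 in WT cells. With OSM it read 11.30 and 10.16 in KO and 8.38 and 8.94 in WT cells. In the WT line the homeobox gene Dlx2 differed by -1.37 and -2.84 with OSM, Tgfb3, a TGF-beta ligand, by -2.06 and -1.45, and Klf10, a TGF-beta early response gene, by 2.11 and 1.15. Dlx2 was under 5 on 6 of 8 arrays, all but the untreated WT arrays at 5.31 and 7.26. Without OSM, Dlx2 and Fst were lower in KO than in WT cells within both numbers, by -1.82 and -3.41 for Dlx2 and -2.25 and -1.39 for Fst. With OSM, Inhba, the antiproliferative Tob1 and the BMP antagonist Grem1 were higher in KO than in WT cells, Tob1 by 2.20 and 1.07 and Grem1 by 1.84 and 1.04. All these had a limma adjusted p of 1.

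**Figure D4:**
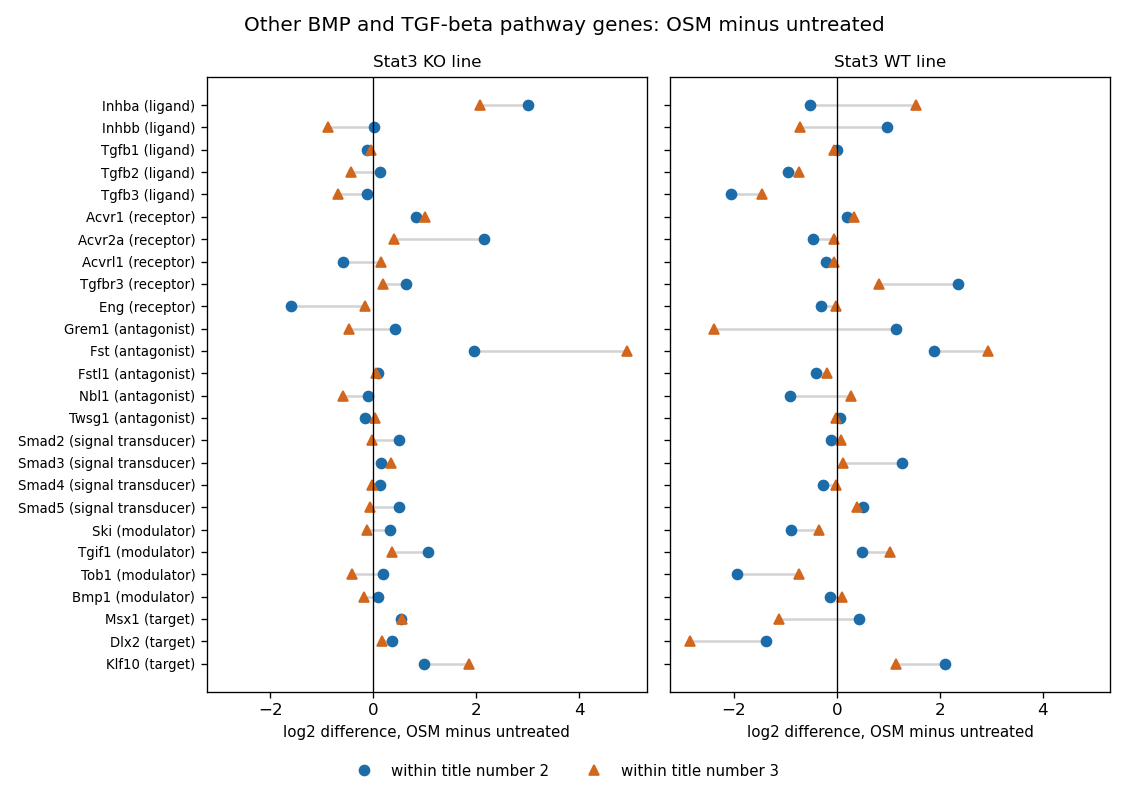
OSM minus untreated log2 difference (horizontal axis) of the 26 other BMP and TGF-beta pathway genes that passed the filter, ordered by role, in the KO line (left) and the WT line (right), within title number 2 (circles) and 3 (triangles). Fst lies right of 0 by at least 1.90 in all 4 pairs.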

How the data were processed

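Mouse MEF RNA was hybridised to 8 Affymetrix arrays, 2 in each of 4 groups, which were assigned from the sample titles. The deposited table holds log2 expression values per probe set, made by the authors with affy and GCRMA per the submitters' processing notes, in versions that the sources used here do not give. This method normalizes all arrays jointly, so a shift shared by most probe sets would not show.

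Of 12488 probe sets 66 controls were left out, and the 6756 with a log2 value of at least 5 on at least 2 arrays were tested. Gene symbols came from the platform annotation, where 10833 probe sets had 1 symbol, 396 had several and 1193 had none. Group means were fitted with limma 3.58.1 in R 4.3.3 (trended eBayes), and p-values were Benjamini-Hochberg adjusted over all tested probe sets, with a threshold of 0.05. The fit was tested on simulated data. Title number was fitted as a term for the comparison of numbers. The genotype-by-number term was added after the data were seen.

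The genes and lists were chosen with earlier results of these data known. The text names all probe sets of the 9 genes, each gene represented by the one with the highest mean. It also names pathway genes called or, up to 5 per comparison, with the largest difference among those at least 1 in the same direction within both numbers, and the 5 genes most like Bmp4 and Id1. Alternatives were no filter or one at 7, eBayes without trend, quantile normalization, median centring, values under 5 set to 5, the number as a block, and leaving out each array.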

Additional observations from a re-analysis of the deposited data

Results flagged for a closer look

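Id2 and Bmpr1a had OSM differences in opposite directions in the genotypes, in both pairs of each. For Id2 the OSM difference was 1.44 and 0.90 in KO cells, against -1.50 and -0.48 in WT cells (numbers 2 and 3), and the difference between the genotypes was 2.16. For Bmpr1a it was 0.29 and 0.07 in KO cells, against -0.55 and -0.02 in WT cells, and the difference between the genotypes was 0.47. The interaction test of limma did not pass for either (adjusted p = 1 each, unadjusted p = 0.147 for Id2 and 0.438 for Bmpr1a). With 1 array left out the OSM difference of Id2 ranged from 0.44 to 1.90 in KO cells and from -2.12 to 0.14 in WT cells, and the difference between the genotypes from 1.03 to 3.29. This pattern held for 14.6% of the tested probe sets.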

How the results depend on the processing

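With 2 arrays a group, the precision is limited by the number of arrays. No member was called for OSM under any alternative run. Arrays that share a title number changed together, the differences between numbers correlating at 0.589 to 0.911 between groups, but the labels do not say that the number pairs samples. With the number as a replicate block, limma called 2 probe sets for OSM in KO cells and 1 in WT cells (0 each without the block), and 7 for KO against WT with OSM (1 without it), none of them members. The members' lowest adjusted p with the block was 0.483 with OSM and 0.512 without. Setting values under 5 to 5 gave 1 call for OSM in KO cells. KO against WT with OSM gave 0 calls without the trend, with quantile normalization, with median centring and with values under 5 set to 5, and 0 to 1 with 1 array left out. Title number had 2775 calls, 7210 without the filter and 1223 to 2599 with 1 array left out. Genotype by number had 378 calls, 7 without the filter (adjusted p = 0.0581 for Bmp4, 0.0759 for Id2 and 0.0695 for Id3) and 0 to 251 with 1 array left out. Smad1 and Id1 passed for genotype by number with the filter at 7 (adjusted p = 0.0427 and 0.0473) and with quantile normalization (0.0325 and 0.0435). For the title number itself, Bmp2 passed without the filter, at 1.35 (limma adjusted p = 0.0368). With 1 array left out that difference ranged from 1.07 to 1.86 for Bmp2 and from -1.90 to -0.89 for Id3. The cause was not tested.

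Signs turned as follows among the comparisons, with the OSM differences given last. KO against WT with OSM was 0.10 for Bmp2 with values under 5 set to 5 and -0.014 for Smad6 with median centring. Genotype by number was -0.0041 for Bmpr1a with quantile normalization. Number 3 against 2 was -0.043 for Smad7 with quantile normalization and -0.087 with median centring. With 1 array left out, KO against WT without OSM ranged from -1.24 to 0.10 for Bmp4, -0.62 to 0.0046 for Bmpr1a, -2.55 to 0.35 for Id1, -1.63 to 0.63 for Id2, -0.87 to 1.76 for Id3, -0.51 to 0.68 for Smad1, -1.46 to 0.58 for Smad6 and -0.28 to 0.34 for Smad7. With OSM it ranged from -1.24 to 0.98 for Bmp2, -0.94 to 0.83 for Bmp4, -0.19 to 0.52 for Bmpr1a, -2.82 to 2.46 for Id1, -1.18 to 1.42 for Id3, -1.01 to 0.28 for Smad1 and -0.53 to 0.70 for Smad6. The difference of OSM effects ranged from -1.72 to 3.56 for Id1, -1.64 to 0.99 for Id3, -1.10 to 0.19 for Smad1 and -0.49 to 1.55 for Smad6. Number 3 against 2 ranged from -0.68 to 0.33 for Bmp4 and -0.85 to 0.38 for Id2. Genotype by number ranged from -1.84 to 0.53 for Bmp2, -0.19 to 0.33 for Bmpr1a and -1.04 to 0.25 for Smad7.

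The Bmp4 difference of OSM effects ranged from -0.36 to 1.40 with 1 array left out. The OSM difference of Bmp2 in WT cells was -0.017 with values under 5 set to 5. With 1 array left out, OSM differences turned sign for Bmp2 (-2.08 to 0.13 in KO and -0.81 to 1.39 in WT cells), Bmpr1a (-0.13 to 0.49 in KO and -0.64 to 0.07 in WT cells), Id1 (-0.27 to 1.46 in KO and -2.97 to 2.32 in WT cells) and Id2 (-2.12 to 0.14 in WT cells). The OSM difference of Bmp4 ranged from -2.07 to -0.81 in KO and -2.84 to -1.08 in WT cells with 1 array left out. That of Id3 ranged from -1.56 to -1.08 in KO cells, but turned sign as well in WT cells, at -2.31 to 0.32. That of Smad6 ranged from -0.60 to -0.35 in KO cells and also turned sign in WT cells, at -2.03 to 0.01.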
